A study of Mus musculus with 6 samples.

Results

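The genes described here encode the proteins of the cytosolic ribosome, the particle that translates nuclear-encoded mRNAs. They were chosen by name: every gene whose symbol is Rpl or Rps with a number and an optional suffix, together with Rplp0, Rplp1, Rplp2 and Rpsa, wherever a probe set of the array is paired with that gene alone. The kinase genes of the Rps6k family were left out. This gave 49 genes of 18193 measured, read by 105 probe sets of 45037. Of the 49, 20 belong to the large subunit, 21 to the small subunit, 2 to the acidic stalk and 6 are paralogs whose symbols end in l or l with a number. The naming rule itself uses no measured value. Rplp1 and Rps27a have no probe set of their own among these and were not analysed here.

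RNA came from the livers of untreated female mice aged 8 weeks of the inbred strains NZB/BinJ (NZB) and SM/J (SM), 3 mice of each, hybridised to 1 array per mouse. The labels describe the 3 mice of a strain as biological replicates. All animals were weaned at 3 weeks onto chow, fasted for 4 hours, and perfused with 50 mL of phosphate-buffered saline before the tissue was frozen, so no group differs in treatment. The only comparison the design holds is NZB against SM, and every difference below is NZB minus SM in log2 expression, tested with limma and called at an adjusted p under 0.05.

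A ribosome is built from ribosomal RNA and one copy of most of its proteins, so the cell needs these proteins in similar amounts. Their mRNAs are long-lived and abundant in liver, a tissue that secretes large quantities of plasma protein. Most begin with a cytosine inside a run of pyrimidines, the terminal oligopyrimidine (TOP) motif, through which the kinase mTORC1 and the RNA-binding protein Larp1 control how well they are translated. Transcription of the genes is driven by factors that include members of the ETS family. Each gene also has many processed pseudogenes, intronless copies in the genome that can resemble the mRNA closely.

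Promoter sequences are shown for the letters around the start of transcription, where the TOP motif lies, and RefSeq (GRCm38.p6) gave one for 43 of the 49. The windows below run from 50 bases before the annotated start of transcription to 30 bases after it, written 5′ to 3′ on the strand of the gene. Capitals mark the longest run of C and T that begins with C within 30 bases on either side of that start, or the first of them where lengths tie, as in Rps27l. The first 6 are the members with the largest differences between strains among those with a promoter in the table, and the others are a pair of paralogs that did not pass the test.
Rpl22l1: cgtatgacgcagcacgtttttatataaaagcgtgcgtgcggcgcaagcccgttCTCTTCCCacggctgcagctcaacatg
Rps6: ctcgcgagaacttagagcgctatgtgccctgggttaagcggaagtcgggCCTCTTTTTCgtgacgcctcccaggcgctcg
Rps9: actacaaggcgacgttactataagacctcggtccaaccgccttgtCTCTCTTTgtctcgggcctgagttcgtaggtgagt
Rps19: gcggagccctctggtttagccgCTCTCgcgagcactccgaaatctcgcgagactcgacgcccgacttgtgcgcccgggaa
Rpl13a: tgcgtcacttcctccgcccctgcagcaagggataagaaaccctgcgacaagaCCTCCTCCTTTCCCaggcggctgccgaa
Rpsa: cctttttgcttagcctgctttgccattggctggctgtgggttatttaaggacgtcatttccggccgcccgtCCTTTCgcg
Rps27l: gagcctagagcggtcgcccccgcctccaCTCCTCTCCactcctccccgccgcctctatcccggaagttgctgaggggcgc
Rpl3l: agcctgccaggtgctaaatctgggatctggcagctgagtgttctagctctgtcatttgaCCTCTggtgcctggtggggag
The Rpl22l1 window lies at chr3:28805458-28805537 on the plus strand and that of Rps6 at chr4:86857338-86857417 on the minus strand. Rps9 lies at chr7:3703991-3704070 on the plus strand, and Rps19 at chr7:24884542-24884621 on the plus strand. Rpl13a lies at chr7:45128716-45128795 on the minus strand, and Rpsa at chr9:120127716-120127795 on the plus strand. Rps27l lies at chr9:66946036-66946115 on the plus strand, and Rpl3l at chr17:24727776-24727855 on the plus strand. In Rps6 and Rps9 the run spans the annotated start. In Rpl13a it begins just inside the transcript, is 14 bases long, and is the longest of those shown. The longest run in Rps19 has only 5 bases and lies well upstream of the start used, that in Rpsa has 6 and that in Rpl3l 5. Rps19 has 3 annotated starts, and Rps27l and Rpl3l have 2 each. Only the most upstream one is shown, so a run at another start would be missed.

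A pyrimidine run of at least 8 bases beginning with C lay within 30 bases of the start in 22 of the 43 promoters (51.2%), against 17.9% of all 27025 promoters of the table. It was present in 13 of 25 members called higher in NZB (52.0%) and in 9 of the 18 not called (50.0%). The motif CCGGAAG, a core to which ETS factors can bind, was found on either strand of the 300-base promoter in 21 of 43 members (48.8%) and in 9.14% of all promoters. Its share was 12 of 25 among members higher in NZB and 9 of 18 among the others. TATAAA, searched in the same way, was found in 14.0% of the members and 14.2% of all promoters, and AAGATGGC, a core of the sites of the factor YY1, in 9.3% and 2.87%. Of the 17492 promoters of protein-coding genes, 11.9% held CCGGAAG, 13.3% TATAAA, 3.21% AAGATGGC and 17.9% the pyrimidine run. Related lists held them too. CCGGAAG was found in 37.0% of 27 promoters of ribosome assembly genes, and the pyrimidine run in 18.5%. Of 10 promoters of other TOP genes, 4 had the pyrimidine run, 1 CCGGAAG and 3 AAGATGGC. CCGGAAG and AAGATGGC can share the letters AAG, and a match describes the sequence only.

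Before the results, 1 array needs a remark. Xist, the RNA that silences an X chromosome in female cells, read 12.66, 12.63 and 12.61 in NZB livers, against 12.84, 7.32 and 12.91 in SM livers. SM replicate 2 therefore stood apart in this gene from all other arrays, which are all labelled female, and the counts and medians of the members by role, and the counts of the other lists that changed, are also given without it. The highest reading of the Y-linked genes looked at was 5.67 over all arrays, SM replicate 2 included. The cause of the low Xist reading was not tested. Array medians lay between 6.60 and 6.66. Over the probe sets, which are no independent replicates, Pearson's r was 0.995 to 0.997 within a strain and 0.985 to 0.987 between strains. The labels give no batch.

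Differences in the ribosomal protein genes were small and mostly toward higher levels in NZB liver. Of 49 members, 28 passed the test as higher in NZB and 0 as lower, which left 21 past neither. Over all 18193 genes 8.47% were higher and 12.6% were lower, so the share of higher members, 57.1%, stood well above the background and the share of lower ones below it. At an unadjusted p under 0.05 the fit had 37 of the 49 members and 6272 of all 18193 genes. The median difference was 0.23, a 1.17-fold level in NZB, against a median of 0.02 over all genes. It was positive in 45 members and negative in 4, against 10084 and 8109 of all genes. The 3 NZB arrays lay wholly above the 3 SM arrays in 35 members, where this held for 19.6% of all genes, and wholly below them in 1 member and 3585 of all genes.

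The count depends on the arrays more than the size does. It was 15 without SM replicate 2, 16 without NZB replicate 1 and 15 without NZB replicate 3, and 17 with the array medians aligned, while the median difference stayed between 0.21 and 0.25 over all arrays left out in turn, at 0.23 without SM replicate 2. Over all genes, 873 were higher and 1498 lower without SM replicate 2, 1012 were higher without NZB replicate 2, and 900 were higher and 1498 lower without NZB replicate 3. Higher calls made up 40.3% of all calls as deposited, 30.3% with medians aligned and 47.5% after quantile normalization. In all, 14 members remained higher in NZB under every array left out and under the settings for scaling, variance and replicate block: Rpl13a, Rpl19, Rpl35, Rpl37a, Rps3, Rps3a1, Rps4x, Rps6, Rps9, Rps14, Rps18, Rps19, Rps24 and Rpsa. The choice of probe set is not among those settings: with plain probe sets only, Rpl35 and Rps18 did not pass and Rps9 was lower in NZB, and with the mean of all probe sets Rps4x did not pass. Neither plain probe set of Rps3 was called (0.08 and 0.15), and the mean of its probe sets was not read separately. The mean of all probe sets also brought Rps6 to 0.29 and Rpsa to 0.18, both still called.

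**Figure D1:**
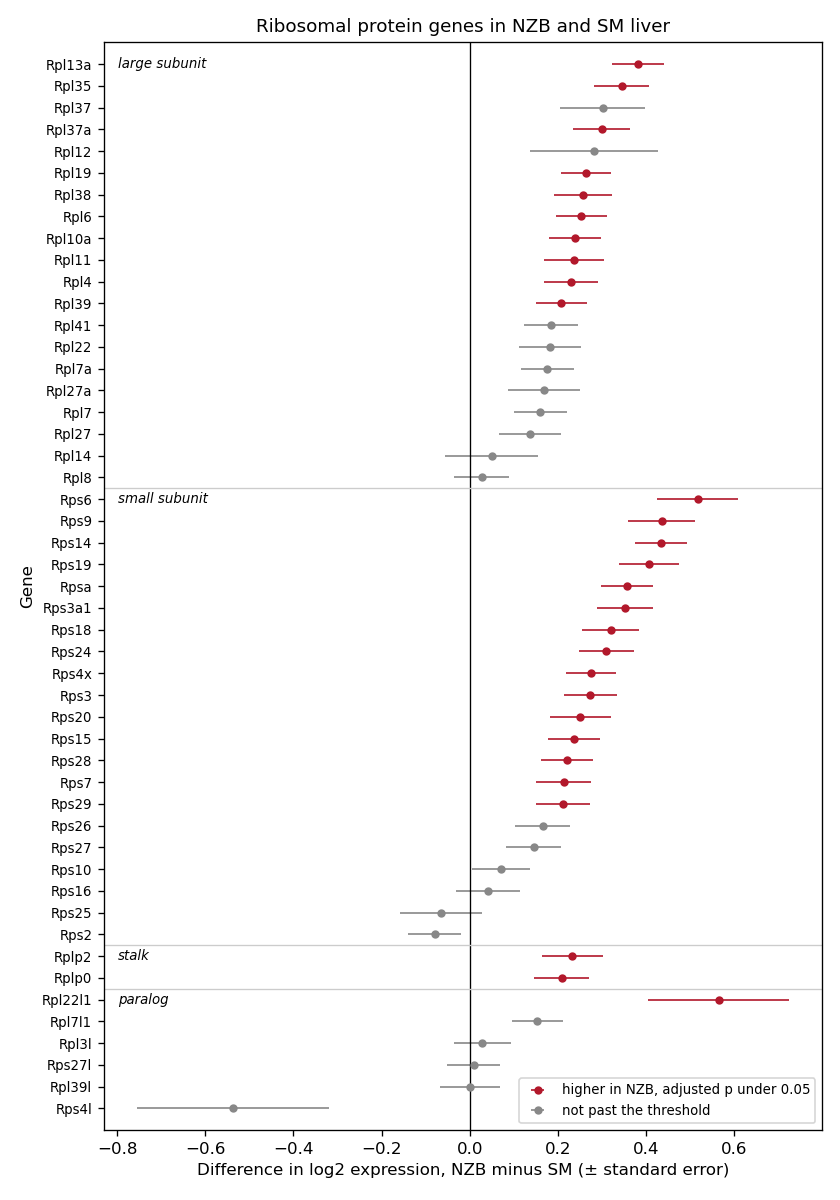
Difference in log2 expression, NZB minus SM, on the x axis for each of the 49 genes, grouped by role, with bars for the standard error of the limma fit. All 20 large subunit genes and 19 of 21 small subunit genes lie right of 0, and 28 genes in red passed the test.

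Bright genes outside the set were counted in the same fit. Of 461 other genes with a mean of at least 12 over the 6 arrays, 57 (12.4%) were higher in NZB and 96 (20.8%) were lower, with a median of -0.02. For the members the cut was 11 instead of 12, so their shares are not matched for level with those of the other genes. Of the 49 members, 35 had a mean of at least 11, and 25 of these were higher with a median of 0.24. Of the 14 dimmer members 3 were higher, with a median of 0.15. Of those 14, 4 lay at or below background, taken as 5.67, the brightest value that any probe set of a Y-linked gene reached on these arrays of female tissue. They were Rpl14, Rps16, Rpl3l and Rpl39l, each read by 1 probe set, and none of the 4 passed the test. A probe set at background leaves both the level of its gene and the strain difference unmeasured.

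On each array most members lay to the same side of their own means, above them in NZB and below them in SM. The median deviation of the 49 genes from their own means was 0.15, 0.06 and 0.13 on the NZB arrays, against -0.10, -0.12 and -0.12 on the SM arrays. The NZB arrays were all above 0 and the SM arrays all below it. NZB replicate 2 was nearest to the SM arrays and gave the lowest NZB reading in 39 of 49 members. The 3 SM arrays, SM replicate 2 included, lay close to each other. Large and small subunit genes followed the same order among NZB arrays, at 0.15, 0.05 and 0.14 for the large subunit and 0.16, 0.07 and 0.16 for the small subunit. Among SM arrays their order differed, at -0.08, -0.11 and -0.15 for the large subunit and -0.12, -0.15 and -0.11 for the small subunit.

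**Figure D2:**
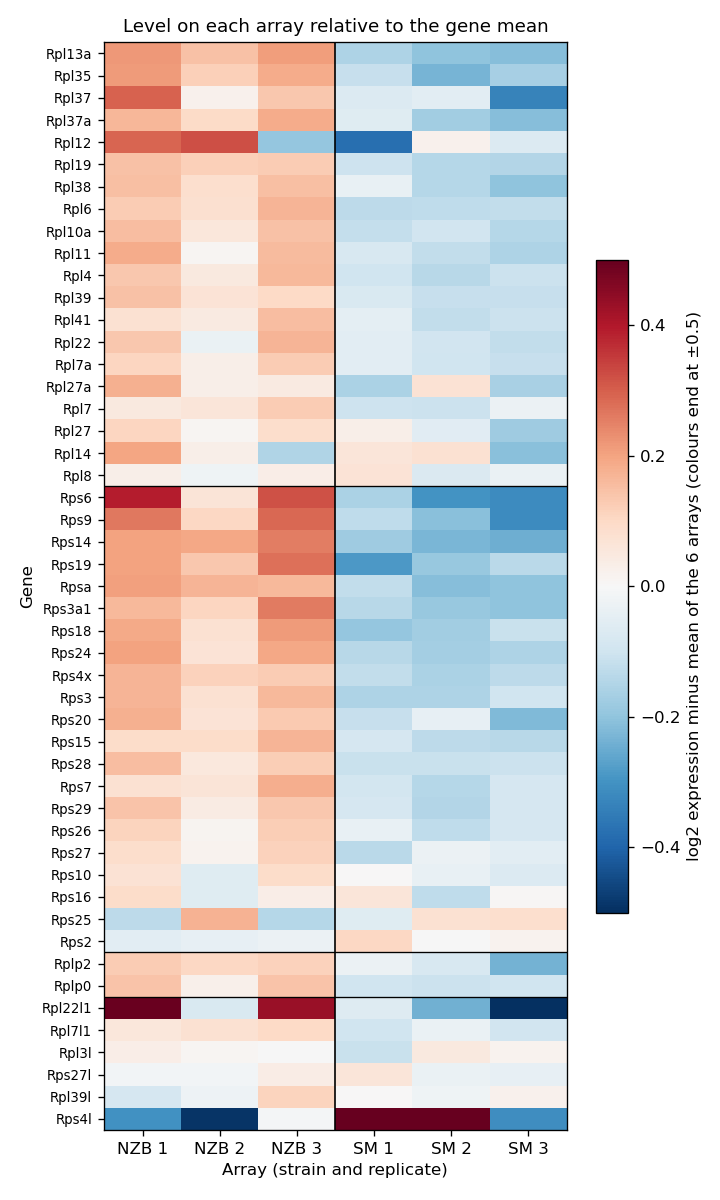
Each row is a gene and each column an array, with colour for log2 expression minus the mean of the 6 arrays, ending at ±0.5. Most rows are red on the 3 NZB arrays and blue on the 3 SM arrays, NZB replicate 2 is the palest NZB column, and Rps4l, Rps2 and Rps25 depart from this.

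The small subunit carries the mRNA channel and the decoding centre. Of its 21 genes, 15 were higher in NZB and 6 were not called, with a median difference of 0.25, and 11 were higher without SM replicate 2 with a median of 0.26. Rps6, the substrate by which S6 kinase activity is commonly followed, read 7.63, 7.30 and 7.55 in NZB livers, against 7.08, 6.94 and 6.92 in SM livers. All NZB arrays were above all SM arrays, and the difference was 0.52 (SE 0.09, 1.43-fold, limma adjusted p = 0.00417). This probe set was dim for the group, with a mean of 7.24 over all arrays against a median of 12.43 for the small subunit genes. The second Rps6 probe set, close to background, differed by 0.07 and did not pass.

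Rps14, whose loss in people causes the anaemia of the 5q- syndrome, read 12.54, 12.53 and 12.60 in NZB livers, against 12.16, 12.11 and 12.10 in SM livers. The groups did not overlap and the replicates of a strain lay close together, for a difference of 0.43 (SE 0.06, limma adjusted p = 0.00102). Its other probe set differed by 0.44. Rps19, the gene first found mutated in human Diamond-Blackfan anaemia, read 11.64, 11.57 and 11.71 in NZB livers, against 11.15, 11.25 and 11.30 in SM livers. Again no SM array reached the NZB arrays, and the gene was 1.32-fold higher (SE 0.07 on the log2 scale, limma adjusted p = 0.00323).

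Rpsa, a small subunit protein also known as the precursor of the laminin receptor, read 12.42, 12.38 and 12.37 in NZB livers, against 12.09, just under 12, and 12.01 in SM livers. The strains were well apart, with a difference of 0.36 (SE 0.06, limma adjusted p = 0.00298). Its second probe set, at 4.53, 4.50 and 4.50 in NZB and 4.54, 4.46 and 4.49 in SM, lay below background. Rps3a1 was 1.28-fold higher, Rps18, a protein of the head of the subunit, 1.25-fold, and Rps24, another gene mutated in human Diamond-Blackfan anaemia, 1.24-fold. Of 6 Rps18 probe sets 3 were higher, and its plain one gave 0.04 and did not pass (limma adjusted p = 0.733). Rps4x, from the X chromosome, read 12.60, 12.55 and 12.56 in NZB livers, against 12.31, 12.27 and 12.30 in SM livers. Its difference was 0.27 (SE 0.06, limma adjusted p = 0.00885), and SM replicate 2, the array low in Xist, read 12.27, near the other SM arrays. A second Rps4x probe set differed by 0.03, and with the mean of both the gene did not pass (0.15, limma adjusted p = 0.0731).

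The remaining small subunit genes that were higher were Rps3, Rps20, Rps15, Rps28, Rps7 and Rps29, with differences of 0.27 down to 0.21. Rps7 was the nearest of these to the threshold among small subunit genes (0.21, limma adjusted p = 0.0373) and its call ended under 9 of the 13 alternatives, among them each array left out (0.20 and adjusted p = 0.123 without SM replicate 2). Rps26 and Rps27 had differences of 0.17 and 0.15 and did not pass, although their NZB arrays lay above all SM arrays. Rps10, at 0.07, and Rps16, below background, did not pass either. Rps2, whose product sits at the mRNA entry side, was the only member whose NZB arrays all lay below the SM arrays. It read 13.25, 13.26 and 13.27 in NZB livers, against 13.40, 13.30 and 13.32 in SM livers. The gap was small (-0.08, limma adjusted p = 0.382). Rps25, with -0.06, also did not pass, and its arrays overlapped.

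The large subunit holds the peptidyl transferase centre and the exit tunnel. All 20 of its genes had positive differences, 10 were called higher and 10 were not called, with a median of 0.23. The count was 4 without SM replicate 2, and 5 without NZB replicate 1 or NZB replicate 3, with a median of 0.24 without SM replicate 2. Rpl13a, which in human myeloid cells also leaves the ribosome to silence inflammatory mRNAs, read 12.99, 12.92 and 12.98 in NZB livers, against 12.62, 12.57 and 12.56 in SM livers. The strains did not overlap, and the difference was 0.38 (SE 0.06, 1.30-fold, limma adjusted p = 0.00204). Of its 4 probe sets 3 were higher, and the differences ran from 0.29 to 0.38.

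Rpl35, near the mouth of the exit tunnel, was 1.27-fold higher and Rpl37a, a zinc finger protein, 1.23-fold. The plain probe set of Rpl35 gave 0.10 and did not pass (limma adjusted p = 0.369). Rpl37a read 13.22, 13.16 and 13.25 in NZB livers, against 13.00, 12.88 and 12.85 in SM livers. The NZB arrays all lay above the SM arrays, and all 3 of its probe sets were higher. Rpl19 read 12.79, 12.76 and 12.77 in NZB livers, against 12.53, 12.50 and 12.49 in SM livers, a tight separation with a difference of 0.26 (SE 0.06, limma adjusted p = 0.0106). Rpl38, needed in the mouse embryo for translation of certain Hox mRNAs, Rpl6, Rpl10a, Rpl11, which binds the p53 regulator Mdm2 when ribosome assembly is disturbed, Rpl4 and Rpl39 were also higher, with differences of 0.26 down to 0.21.

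Just outside the threshold lay Rpl37 (0.30, limma adjusted p = 0.0551), Rpl41 (0.18, 0.0606) and Rpl7a (0.18, 0.0686). In each of these 3 genes the NZB arrays all lay above the SM arrays. Rpl41, the shortest protein of the ribosome, read 13.61, 13.58 and 13.68 in NZB livers, against 13.48, 13.41 and 13.42 in SM livers. Rpl22, Rpl27a, Rpl7, Rpl27 and Rpl12 had differences between 0.14 and 0.28 and did not pass. The arrays of the strains overlapped in Rpl12, Rpl27 and Rpl27a. Rpl8, at 12.36, 12.31 and 12.36 in NZB livers, against 12.40, 12.26 and 12.30 in SM livers, overlapped, with a difference of 0.03.

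The stalk is the flexible arm of the large subunit that recruits the translation factors. Both measured stalk genes were just inside the threshold. Rplp0, the base of the stalk, read 12.61, 12.49 and 12.61 in NZB livers, against 12.36, 12.35 and 12.36 in SM livers. Rplp2, an acidic stalk protein, read 12.80, 12.78 and 12.79 in NZB livers, against 12.64, 12.59 and 12.43 in SM livers. Neither gene overlapped between strains, with differences of 0.21 for Rplp0 (SE 0.06, limma adjusted p = 0.0397) and 0.23 for Rplp2 (SE 0.07, adjusted p = 0.0416). The sizes were similar without SM replicate 2, at 0.21 and 0.25, but neither gene passed then (limma adjusted p = 0.110 and 0.0876). Nor did either without SM replicate 3, NZB replicate 1 or NZB replicate 3, or with the replicate number as a block (0.0681 and 0.0606).

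The 6 paralogs are copies of ribosomal protein genes that can replace the usual protein or act elsewhere. Their median difference was 0.02, and 1 of the 6 was higher. That gene, Rpl22l1, the paralog of Rpl22, had the largest difference of all members. It read 11.25, 10.68 and 11.19 in NZB livers, against 10.69, 10.52 and 10.21 in SM livers. NZB replicate 2 fell just under the highest SM array, so the groups overlapped, with a difference of 0.56 (SE 0.16, 1.48-fold, limma adjusted p = 0.0340). The call ended without SM replicate 2, SM replicate 3, NZB replicate 1 or NZB replicate 3 (adjusted p between 0.0796 and 0.123), with medians aligned and with trended variances. Rpl22 itself differed by 0.18 and did not pass.

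Rps27l, a p53 target and the paralog of Rps27, read 12.32, 12.32 and 12.37 in NZB livers, against 12.39, 12.30 and 12.29 in SM livers. The arrays were intermingled, and the difference was 0.01 (limma adjusted p = 0.940). All 3 of its probe sets lay within 0.01 of 0. No difference was detectable in Rps27l with these arrays. Rpl3l, a paralog of striated muscle, and Rpl39l, a paralog best known from testis, lay below background, with overlapping arrays. Rpl7l1 read 9.11, 9.13 and 9.15 in NZB livers, against 8.95, 9.02 and 8.96 in SM livers, a gap of 0.15 without overlap that did not pass (limma adjusted p = 0.0939).

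Rps4l ran the other way. It read 7.83, 7.64 and 8.12 in NZB livers, against 8.63, 8.75 and 7.82 in SM livers. SM replicate 3 lay among the NZB arrays while the other SM arrays lay above them. The difference was -0.54 (SE 0.22) and did not pass (limma adjusted p = 0.115). Without SM replicate 3 the gene was lower in NZB, with a difference of -0.83 and an adjusted p of 0.00266, and it was -0.36 without SM replicate 2.

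Many members are read by several probe sets, which need not agree. In a fit over all 45037 probe sets, 47 of the 105 were higher in NZB, 1 was lower and 57 did not pass, where 6.09% of all probe sets were higher and 8.69% lower. The higher count was 21 without SM replicate 2, 27 without SM replicate 3, 23 without NZB replicate 1, 18 without NZB replicate 3, and 31 with the replicate number as a block. Of 62 probe sets with a mean of at least 11, 39 were higher and 0 were lower. Of 43 dimmer ones 8 were higher and 1 was lower. Among 24 members with several probe sets, 3 had all of them higher (Rpl37a, Rps14 and Rps15).

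Kind and brightness of the probe sets went together. Probe sets with a letter before the ending _at, whose probes can match more than one transcript, were 71 of the 105, and 40 of them were higher, with a median of 0.24. Of the 34 plain probe sets 7 were higher and 1 was lower, with a median of 0.08, but only 5 plain ones had a mean of at least 11. Of those 5, 3 were higher with a median of 0.24, and of 57 lettered ones in that range 36 were higher with a median of 0.25. With plain probe sets only, 26 members were measured, 7 were higher and 1 was lower, and the median difference was 0.12. Pseudogene copies close to the mRNA can share probes with their gene, so values of single members are uncertain to that extent, and the part of such copies in the difference was not tested.

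Rps9, whose product lies by the mRNA entry channel, was the only member with probe sets called in opposite directions. The probe set that stands for the gene read 12.26, 12.10 and 12.28 in NZB livers, against 11.86, 11.78 and 11.68 in SM livers, without overlap. It was higher in NZB by 0.44 (SE 0.08, limma adjusted p = 0.00595 over probe sets, 0.00381 over genes). A second read 12.29, 11.88 and 12.29 in NZB livers, against 9.47, 9.47 and 9.43 in SM livers. That is a 6.48-fold difference (2.70, limma adjusted p = 1.4e-06), far beyond any other probe set of the members. The third, a plain probe set, read 6.73, 6.68 and 6.98 in NZB livers, against 7.24, 7.47 and 7.60 in SM livers, and was lower in NZB by 0.64 on the log2 scale (limma adjusted p = 0.00504). The direction of Rps9 therefore depends on the probe set read.

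Rpl7l1 also had a probe set far from the rest. It read 7.35, 7.26 and 7.37 in NZB livers, against 5.80, 5.96 and 5.95 in SM livers. No array overlapped, and the difference of 1.42 (2.68-fold, limma adjusted p = 5.0e-06) contrasts with 0.15 and -0.04 in its other probe sets. For Rps24, 5 of 6 probe sets were higher, by 0.30 to 0.37, and the remaining one had -0.33 without passing. Sequence differences between the strains under single probes were not analysed here.

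**Figure D3:**
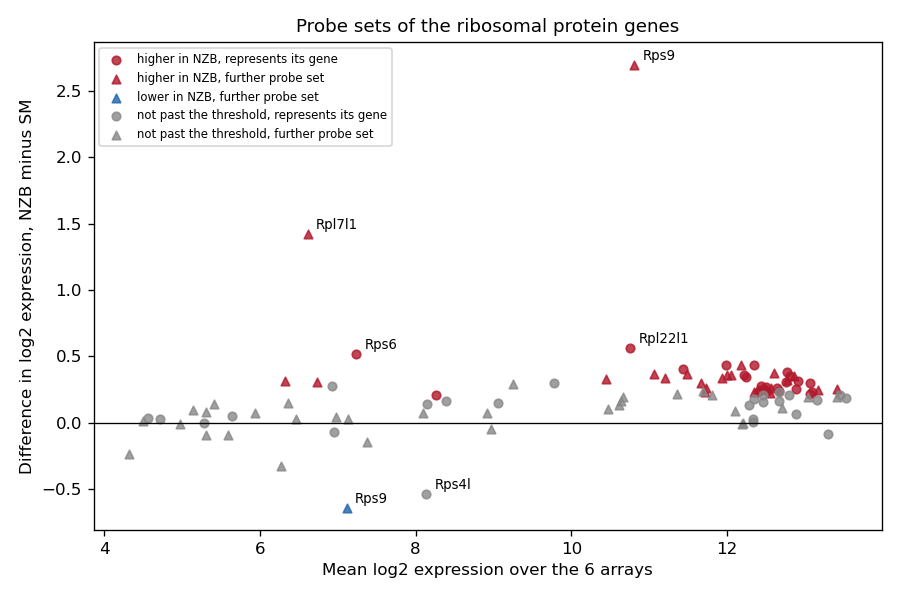
Each point is 1 of the 105 probe sets, with mean log2 expression over the 6 arrays on the x axis and the difference NZB minus SM in log2 expression on the y axis. Most bright probe sets lie between 0 and 0.5, a further Rps9 probe set lies at 2.70, a further Rpl7l1 probe set at 1.42, and another Rps9 probe set at -0.64.

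Other genes of translation were read in the same fit, in which 8.47% of all genes were higher and 12.6% lower. Among 7 measured elongation factor genes, 1 was higher (Eef1b2, which recharges eEF1A with GTP, 0.41) and 1 was lower (Eef1e1, a scaffold of the tRNA synthetase complex, -0.59), with a median of -0.02. Other genes whose mRNAs start with a TOP motif numbered 13, of which 2 were higher and 0 lower, with a median of -0.01. The 2 were the histone chaperone Nap1l1 (0.57) and the intermediate filament gene Vim (0.45), a gene of mesenchymal and immune cells. Vim did not pass without SM replicate 2 (0.33, limma adjusted p = 0.0920), without NZB replicate 1 or without NZB replicate 3. Nap1l1 read 9.75, 9.59 and 9.72 in NZB livers, against 9.05, 9.16 and 9.12 in SM livers, without overlap.

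Of 21 initiation factor genes, 0 were higher and 6 were lower, with a median of -0.11. They included Eif5b, which joins the subunits (-0.42), and Eif6, which keeps free large subunits apart from small ones (-0.40). Without SM replicate 2, 4 were lower. Eif6 depends on the probe set, since its plain probe set gave 0.05 and did not pass. The genes that assemble ribosomes in the nucleolus went against the ribosomal proteins in sign. Of 31 measured, 14 were lower in NZB and 1 was higher; 29 had negative differences, and the median was -0.21. The lower count was 9 without SM replicate 2 and 9 without NZB replicate 3.

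Rrp12, which acts in the maturation and export of pre-ribosomal particles, read 6.10, 6.05 and 6.09 in NZB livers, against 6.80, 6.61 and 6.82 in SM livers. The groups lay clearly apart, by -0.67 (SE 0.07, limma adjusted p = 2.99e-04). Pes1, of the complex that processes large subunit RNA, read 7.19, 7.18 and 7.01 in NZB livers, against 7.90, 7.68 and 7.68 in SM livers, a difference of -0.62 without overlap. Heatr1, an early factor for small subunit RNA, was the 1 gene higher (0.25, limma adjusted p = 0.0335). It did not pass without SM replicate 1, SM replicate 2, NZB replicate 1 or NZB replicate 2.

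Among 12 genes of RNA polymerase I and its factors, 0 were higher and 3 were lower, with a median of -0.09, among them Ubtf, which keeps ribosomal RNA genes open (-0.39, and -0.25 with an adjusted p of 0.155 in limma for the mean of its probe sets), and Taf1b, of the promoter selectivity factor (-0.39). Taf1b did not pass without SM replicate 2 (limma adjusted p = 0.0687), NZB replicate 1 or NZB replicate 3. Of 21 genes that act in mTORC1 and Myc control of ribosome synthesis, 2 (9.52%) were lower, a share under the 12.6% of all genes. They were the Myc antagonist Mxi1 (-0.49) and the mTORC1 inhibitor Sesn1 (-0.42), with a median of -0.14 over the list. Sesn1 did not pass without NZB replicate 3 (limma adjusted p = 0.0685), which left 1 gene lower, nor with the mean of its probe sets or its plain ones only (0.0598 and 0.0696). Of 10 genes of ribosomal stress and p53 targets 1 (10%) was lower, again under that share. It was Btg2 (-0.30), whose call ended without SM replicate 2, SM replicate 3, NZB replicate 1 or NZB replicate 3. The median was -0.01.

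Of 12 genes for ribosome-associated chaperones and quality control, 8 were lower and 0 higher, with a median of -0.28, and 5 were lower without SM replicate 2 or without NZB replicate 2. The chaperone Hspa8 (-0.40) and Eif4enif1 (-0.42) had the largest differences. Eif4enif1 carries the cap-binding protein eIF4E into the nucleus, so the name of the list describes it only loosely, and it is 1 of the 8. Hspa8 did not pass on its plain probe set (-0.55, limma adjusted p = 0.284). Proteins of the mitochondrial ribosome are encoded by a separate family. Of 76 such genes, 3 (3.95%) were higher and 13 (17.1%) lower, against 8.47% and 12.6% of all genes. Their median was -0.09, with 56 negative differences. The lower count was 9 without SM replicate 2, 8 without NZB replicate 2 and 8 without NZB replicate 3, and 1 was higher without SM replicate 2, NZB replicate 2 or NZB replicate 3. Mrps12 (0.56) and Mrpl35 (0.23) had the largest positive and Mrpl47 (-0.60) and Mrps31 (-0.57) the largest negative differences among those that passed. Mrpl35 did not pass without any single array other than SM replicate 1. Differences between these lists and the ribosomal proteins were not tested.

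**Figure D4:**
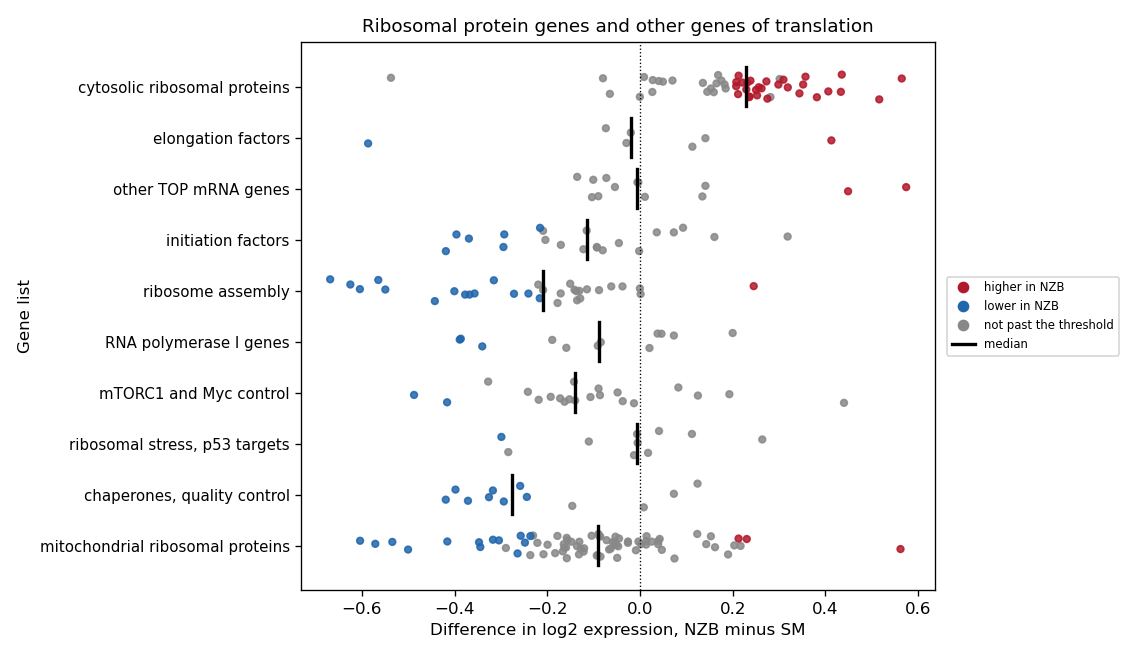
Each point is a gene, with the difference in log2 expression, NZB minus SM, on the x axis, and each row is a gene list with its median as a black bar. The cytosolic ribosomal proteins have a median of 0.23, and the medians of the other 9 lists lie between -0.28 and -0.01.

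Markers of the cell types in liver were read on the same arrays, since in bulk tissue a difference in the number of cells of a type and one in RNA per cell cannot be told apart. All 8 hepatocyte markers were above background, and 2 were lower and 0 higher. Their summed linear level was 148900 to 153400 in NZB livers, against 154900 to 157900 in SM livers. The 2 lower genes were Tat, which averaged 12.89 in NZB and 13.62 in SM (-0.73), and Hnf4a (-0.38). Alb, Apoa1, Ttr and Fgb had differences of 0.02, 0.02, 0.06 and 0.16, and Cps1 and Serpina1c of -0.12 and -0.08, none called. The sums are thus no uniform shift of the hepatocyte markers. Of 8 markers of B and plasma cells 5 were higher, with a sum of 11620 to 17850 in NZB and 5311 to 5754 in SM. Xbp1, the brightest of these in SM livers, averaged 12.33 in NZB and 12.20 in SM and was not called, so the sums understate the other differences. Ighm averaged 12.71 in NZB and 8.37 in SM, a 20.3-fold level. Jchain, the joining chain of secreted IgM, had a 19.5-fold level in NZB, and Pou2af1 was at background. Of 11 Kupffer cell and macrophage markers 8 were higher and 1 lower, with a sum of 11580 to 13690 in NZB and 8766 to 9890 in SM.

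Of 7 T and NK cell markers 4 were higher, with a sum of 969 to 1006 in NZB and 824 to 894 in SM, and Cd3g was at background. Of 6 neutrophil and monocyte markers 3 were higher, with a sum of 985 to 1162 in NZB and 806 to 864 in SM. Of 7 markers of dividing cells 4 were higher and 1 lower, with Mki67 at background and sums that overlapped, 1545 to 1804 in NZB and 1706 to 1902 in SM. Sinusoidal endothelium had 3 higher and 2 lower of 8, with a sum of 5952 to 6766 in NZB and 5385 to 5865 in SM. Of 4 erythroid markers 1 was lower, with Hba-a1 at background and a sum of 342 to 496 in NZB and 563 to 895 in SM. The lower one was Alas2, the brightest of them, at 7.90 in NZB and 8.99 in SM. Epb42, Slc4a1 and Hba-a1 had differences of 0.11, 0.10 and 0.07 and were not called. For the 8 stellate cell markers 0 passed, with 4046 to 5383 in NZB and 5047 to 5786 in SM, and for 5 cholangiocyte markers 0 passed, with Cftr and Krt7 at background and 786 to 845 in NZB and 769 to 797 in SM. The sums for B and plasma cells, T and NK cells, macrophages, neutrophils and monocytes, and sinusoidal endothelium were higher in every NZB liver than in any SM liver. They share this direction with most ribosomal protein genes, and the order of the NZB arrays varied between markers. NZB replicate 2 gave the lowest NZB reading in 39 of 49 members and the highest NZB reading in each Kupffer cell and macrophage marker. Among markers of sinusoidal endothelium it gave the lowest NZB reading in Stab2 (10.50, 10.04 and 10.31) and the highest in Kdr (9.85, 9.90 and 9.77). The part of these cell types in the result was not tested.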

How the data were processed

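Liver RNA of 6 mice was read on 6 arrays, and the deposited table holds 1 column per array, with 0 columns unmatched. Its values came from RMA, which corrects background, normalizes arrays and summarizes probes, per the submitters' processing notes. No version or setting is given in the sources used here. The scale of the deposited values was taken to be log2: they run from 3.43 to 14.9, and a 16-bit scanner allows at most 16 in log2 and 11.1 in natural log. RMA compresses differences near background, and the brightest probe sets can be near saturation.

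Of 45037 probe sets, 34945 name 1 gene, 932 name several and 9160 name none in the table used. Symbols were updated through RefSeq (GRCm38.p6) by Entrez ID for 34741 and kept for 204. A gene took the probe set with the highest mean over the 6 arrays. NZB was compared with SM in R 4.3.3 with the package limma 3.58.1 (functions lmFit and eBayes, two-sided, Benjamini-Hochberg over all genes, threshold 0.05), tested on simulated data. With 3 against 3 an exact permutation test cannot go below 0.1, so none was used. The number of arrays limits the precision.

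The members, gene lists and markers were chosen with earlier results of these data known, and lists are described by counts and medians. Named by rule were up to 12 members with the largest differences, stalk genes, Rpsa, paralogs and Rps4x, the brightest and dimmest member, members with opposing probe sets, the 3 on each side of the threshold, and up to 2 genes per direction of each list. Other names were chosen after their values were seen. Promoters were read with Python 3.11.15, from the most upstream start of each gene. Alternatives were array medians aligned, quantile normalization, the mean of a gene's probe sets, plain probe sets only, a filter on dim genes, trended and robust variances, array weights, a replicate block and each array left out.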

Additional observations from a re-analysis of the deposited data

How the results depend on the processing

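With 3 arrays per strain and differences near 0.2, the number of ribosomal protein genes called moves more than their median. Leaving out each array in turn gave 15 to 27 members higher in NZB and 0 to 1 lower, 2371 to 3847 called genes in all (873 to 1445 higher, 1498 to 2402 lower), 4 to 11 large subunit genes, 0 to 1 stalk genes, 0 to 1 paralogs higher and 0 to 1 lower, and 18 to 41 probe sets higher and 1 to 2 lower. For the other lists it gave 1 to 2 other TOP genes higher, 0 to 1 initiation factors higher, 0 to 1 assembly genes higher and 9 to 14 lower, 0 to 1 mTORC1 and Myc genes higher and 1 to 4 lower, 0 to 1 stress genes lower, 5 to 9 chaperone genes lower, and 1 to 3 mitochondrial genes higher and 8 to 17 lower.

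With array medians aligned, the higher counts were 17 members, 6 large subunit genes, 0 stalk genes, 0 paralogs, 29 probe sets, 0 assembly genes and 1 mitochondrial gene, and the lower counts were 4 mTORC1 and Myc genes and 2 stress genes. Quantile normalization gave 1 stalk gene, 2 paralogs, 1 initiation factor, 1 mTORC1 and Myc gene and 9 mitochondrial genes higher, and 3 initiation factors, 0 stress genes and 8 mitochondrial genes lower. The mean of all probe sets gave a small subunit median of 0.19, 2 paralogs, 0 assembly genes and 1 mTORC1 and Myc gene higher, and 1 mTORC1 and Myc gene and 4 chaperone genes lower. Without dim genes the paralog median was 0.081, with 1 mTORC1 and Myc gene higher and 2 stress genes lower. Trended and robust variances gave 0 paralogs higher and 2 stress genes lower. Array weights gave 1 member lower, the paralog Rps4l (1 paralog), 2 probe sets lower, 1 RNA polymerase I gene, 1 mTORC1 and Myc gene and 6 mitochondrial genes higher, and 4 mTORC1 and Myc genes and 2 stress genes lower.

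With plain probe sets only, 26 members were measured and fewer genes were tested. The counts were 7 members higher and 1 lower, 2 large subunit genes higher, 4 small subunit genes higher and 1 lower, 1 stalk gene, 0 paralogs and 0 elongation factors higher, and 1 other TOP gene, 1 RNA polymerase I gene, 1 mTORC1 and Myc gene and 4 chaperone genes lower. The medians were 0.12 for all members, 0.17 for the large subunit and 0.060 for the small subunit. Rps9 turned to -0.64 (limma adjusted p = 0.00326) and Eif6 to 0.046, both through another probe set. The causes of the other changes were not tested.

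Replicate numbers do not pair the samples: same-numbered arrays had deviations correlated at 0.04, -0.07 and 0.05. With the replicate number as a block, 20 members, 0 stalk genes, 31 probe sets, 0 assembly genes and 1 mitochondrial gene were higher, and 3436 genes were called in all.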

Other observations

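Many ribosomal protein genes are read only through probe sets paired with several genes, which entered no comparison above. There were 110 such probe sets that list at least 1 cytosolic ribosomal protein symbol, and 28 ribosomal protein symbols occur only there. In the fit over all probe sets 51 of them were higher in NZB, 1 was lower and 58 did not pass, with a median difference of 0.21 and 98 positive differences. Their genes are not named here, since the signal cannot be assigned to 1 of them.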
